A study of Mus musculus with 57 samples.

Results

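The 10 Toll-like receptor genes Tlr1, Tlr2, Tlr3, Tlr4, Tlr5, Tlr6, Tlr7, Tlr8, Tlr9 and Tlr13 were taken by symbol from both deposited count tables of a mouse brain study, which hold 50565 and 53278 genes. All 10 were found in both tables, and all 10 passed the filter on low counts in both. The study measured polyadenylated RNA of CD11b-positive cells, labelled as microglia, from adult wild-type (WT) mice and from littermates deficient in P2RY12 (KO), a nucleotide receptor abundant on resting microglia. The sex experiment has a column for 9 male animals, 4 WT and 5 KO, and for 9 females, again 4 WT and 5 KO, all without an LPS label. The second, the LPS experiment, holds 8 libraries labelled WT ns, 9 WT LPS, 8 KO ns and 8 KO LPS. LPS is lipopolysaccharide of the bacterial outer membrane, given intraperitoneally at a dose of 1 mg/kg. Neither ns nor the time after injection is defined, and no sex is given for the LPS experiment. How the KO allele was made and in which cells it acts is not given in the sources used here. Nothing says whether libraries of a group came from separate animals in the LPS experiment, so that its p-values measure the spread between libraries.

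Toll-like receptors recognise conserved microbial molecules and start inflammatory gene expression. Tlr2 pairs with Tlr1 or Tlr6 to bind bacterial lipopeptides, Tlr4 with its co-receptor binds LPS, and Tlr5 binds flagellin, all at the cell surface. Tlr3, Tlr7, Tlr8, Tlr9 and Tlr13 sit in endosomes and sense double-stranded RNA, single-stranded RNA, unmethylated DNA and bacterial ribosomal RNA. Tlr3 signals through the adaptor Ticam1, most others through Myd88, and both routes reach the transcription factor NF-kappaB. Microglia are the main cells of the brain parenchyma that carry these receptors.

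Promoter sequences are shown for Tlr2 and Tlr6, which with Tlr1 form the lipopeptide receptors, and for Tlr3, which LPS did not change past the test's threshold. RefSeq windows of 250 bases before the start (build GRCm38.p6) were given for 8 of the 10 members, in 10 windows. Letter patterns of 3 kinds were searched on both strands. GGG and TTCC with any 3 bases between them, the NF-kappaB type, occurred in 4.65% of 32851 windows of that length. GAAA and GAAA with any 2 bases between them, the core of an interferon response element, occurred in 2.98%, and GAGGAAGT, of the PU.1 type, in 2.44%. The windows lie at chr3:83841609-83841858 for Tlr2, chr5:64960049-64960298 and chr5:64959167-64959416 for starts A and B of Tlr6, and chr8:45410381-45410630 for Tlr3, all on the minus strand. Capitals mark the NF-kappaB-type letters in Tlr2, Tlr6 start A and Tlr3, and 2 overlapping interferon-type matches in Tlr6 start B.
Tlr2: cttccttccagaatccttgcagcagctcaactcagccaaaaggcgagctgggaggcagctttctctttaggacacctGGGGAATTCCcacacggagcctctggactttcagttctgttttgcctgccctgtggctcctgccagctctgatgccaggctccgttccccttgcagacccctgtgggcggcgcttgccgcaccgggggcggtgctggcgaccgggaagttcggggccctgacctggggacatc
Tlr6 start A: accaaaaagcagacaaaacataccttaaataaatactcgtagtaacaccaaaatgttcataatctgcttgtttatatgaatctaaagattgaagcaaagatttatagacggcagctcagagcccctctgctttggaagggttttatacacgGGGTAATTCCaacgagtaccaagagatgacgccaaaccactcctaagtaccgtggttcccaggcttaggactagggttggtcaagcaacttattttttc
Tlr6 start B: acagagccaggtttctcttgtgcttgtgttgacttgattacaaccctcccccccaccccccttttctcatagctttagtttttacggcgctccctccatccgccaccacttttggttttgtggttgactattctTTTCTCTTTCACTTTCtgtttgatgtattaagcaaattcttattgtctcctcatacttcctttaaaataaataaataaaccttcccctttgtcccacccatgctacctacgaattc
Tlr3: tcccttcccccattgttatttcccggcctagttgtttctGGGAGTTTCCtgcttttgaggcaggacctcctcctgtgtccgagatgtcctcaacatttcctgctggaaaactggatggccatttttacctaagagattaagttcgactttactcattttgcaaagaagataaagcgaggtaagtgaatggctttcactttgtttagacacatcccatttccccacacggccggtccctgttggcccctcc
The match lay 173 to 164 bases before the start in Tlr2, 99 to 90 in Tlr6 start A and 211 to 202 in Tlr3. One of the 2 Tlr1 windows held the PU.1-type letters, 23 to 16 bases before the start. The windows of Tlr5, Tlr8, Tlr9 and Tlr13 held none of the 3 patterns. A match is a description of these letters and not a measured binding site.

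Libraries of the sex experiment held 58.5 to 318.5 M counts (M for mega), and those of the LPS experiment 15.9 to 168.4 M. The targeted gene P2ry12 lay at 3010 to 5930 CPM (counts per M counts of the TMM-scaled library) in the WT and 309 to 526 in the KO animals of the sex experiment. In the LPS experiment KO libraries lay below WT libraries of the same treatment, at 588 to 1170 against 3540 to 5480 CPM for ns and 85.2 to 148 against 405 to 1020 for LPS. The 4 WT libraries of library number 2 went against their labels. Those labelled WT ns 1 and 5 held P2ry12 at 490 to 903 CPM and Saa3, an acute-phase gene, at 1810 and 2430 CPM, where the other 6 WT ns libraries held 1.53 to 64.7, and those labelled WT LPS 1 and 6 held Saa3 at 1.61 and 2.98 against 1420 to 9330. These 4 are shown apart and enter no comparison unless stated. WT LPS 8 and WT LPS 9 differed by little more than sampling noise and were counted as 1 sample, which leaves 6 WT ns, 6 WT LPS, 8 KO ns and 8 KO LPS samples. Over all genes, 6 libraries had levels that fell steeply with the GC content of the transcript, by 1.00 to 1.88 on the log2 scale per 10 percentage points, against slopes of -0.10 to 0.48 in the other 27. They are WT ns 5, WT LPS 6, WT LPS 7, KO ns 5, KO ns 6 and KO LPS 5, all of the second library set, and results are given with and without them. Library set 1 held Xist at 0.691 to 2.14 CPM and set 2 at 740 to 2590, so library set and the sex that Xist marks cannot be told apart there. The 10 microglial markers summed to 25900 to 43900 CPM in WT ns and 17200 to 25800 in WT LPS, and to 34100 to 49500 in KO ns and 21300 to 27400 in KO LPS. The 8 neutrophil markers summed to 323 to 17300, 1670 to 12900, 291 to 9550 and 1000 to 4160 CPM in the same order of groups, with 17300 in WT ns 3 and 16200 in WT ns 8, and their part in the results was not tested. Of the 5 T and NK cell markers there, Cd3e and Cd3g reached at most 0.23 and 1.82 CPM. Each was at 0 in 11 of the 32 samples. Trbc2 reached 1.93 CPM and was at 0 in 2 samples. Nkg7 and Klrb1c reached 45.3 and 57.0 CPM and were at 0 in none.

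Per kilobase of the longest transcript, Tlr7 was the most abundant member in both ns groups and Tlr8 the least. In WT ns libraries the mean level was 111 ± 16.4 CPM per kilobase for Tlr7 (SD, n = 6), 77.2 ± 11.5 for Tlr13, 51.0 ± 4.57 for Tlr2, 50.8 ± 11.4 for Tlr9, 34.2 ± 5.02 for Tlr3, 32.6 ± 4.42 for Tlr1, 24.9 ± 3.96 for Tlr4, 17.9 ± 2.10 for Tlr6, 13.0 ± 2.41 for Tlr5 and 5.06 ± 2.18 for Tlr8. Only the steps from Tlr13 to Tlr2, from Tlr9 to Tlr3 and from Tlr5 to Tlr8 separated neighbours whose ranges did not overlap. Tlr4, the LPS receptor, was thus in the lower part of the order in WT ns libraries, at rank 7. In the sex experiment Tlr4 had rank 4 in each group, at means of 41.8 to 48.0 CPM per kilobase, ahead of Tlr3, Tlr9 and Tlr1. Its range overlapped that of the next member in female WT, male KO and male WT. Counts of the sex experiment include introns, while the length used is that of the transcript. The cause of the different rank was not tested. In WT LPS libraries outside those of low GC slope, Tlr2 came first at 396 ± 65.8 CPM per kilobase (SD, n = 5), ahead of Tlr7 at 220 ± 72.1 with an overlapping range, and Tlr8 stayed last at 2.87 ± 0.902. KO LPS libraries had the same leading genes, with Tlr2 at 332 ± 59.8 (SD, n = 7) and Tlr7 at 184 ± 73.5.

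**Figure D1:**
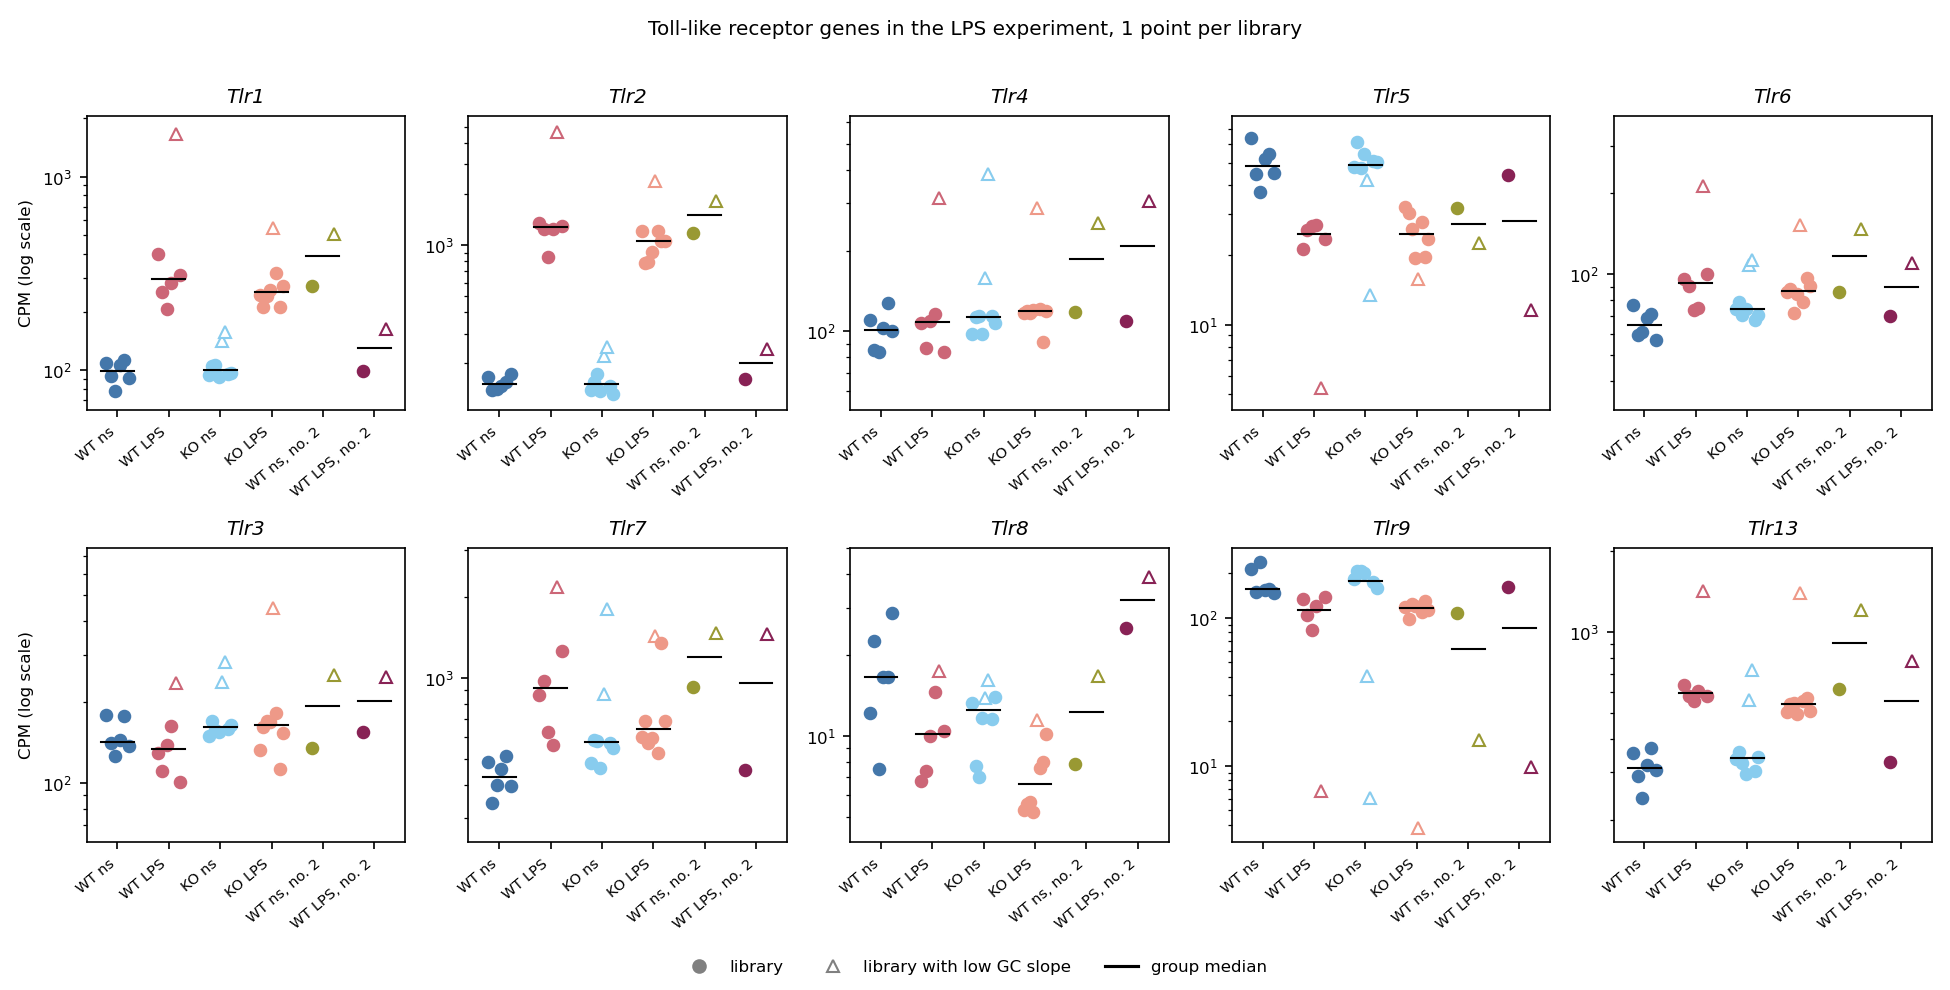
Level of each member in the LPS experiment in CPM (log scale), 1 point per library, with group medians as lines and libraries of low GC slope as open triangles. Tlr2 and Tlr1 lay higher in every LPS library than in any ns library of the same genotype, while the 2 columns of number 2 WT libraries show the opposite order.

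LPS changed 5 of the 10 members in KO and 7 in WT at an adjusted p under 0.05 (edgeR quasi-likelihood test, Benjamini-Hochberg over all 17954 genes tested). In KO, Tlr1, Tlr2 and Tlr13 rose and Tlr5 and Tlr8 fell, where 26.2% of all genes tested were called, 11.9% as higher and 14.2% as lower. In WT, Tlr1, Tlr2, Tlr6, Tlr7 and Tlr13 rose and Tlr5 and Tlr8 fell, against 28.1% of all genes, 13.5% higher and 14.6% lower. The median log2 fold change of the members was 0.10 in KO and 0.52 in WT, and that of all genes -0.03 and -0.02. With the 6 libraries of low GC slope left out, 7 members were called in KO and 8 in WT, but 49.9% and 49.6% of all 18282 genes tested were called as well. With the number 2 libraries put back under their labels, 3 members were called in KO and 0 in WT, where edgeR called 0 of 15857 genes and 3605 had an unadjusted p under 0.05.

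Tlr2 had the largest change of the family. Its level was 140 CPM in the lowest, 151 in the median and 173 in the highest of the 6 WT ns libraries, and 847, 1270 and 4650 in the 6 WT LPS samples. In KO it was 132, 151 and 251 CPM in ns and 781, 1050 and 2390 in LPS. No LPS library overlapped an ns library of its genotype. How often the ranges of all genes separate between groups was not counted in any comparison. The gaps and overlaps of single members therefore have no background to be read against. The fold change was 10.8 in WT (log2 3.44 ± 0.30 SE, adjusted p = 1.59e-09) and 6.79 in KO (log2 2.76 ± 0.25, adjusted p = 1.69e-09). Leaving out the libraries of low GC slope gave log2 values of 2.99 ± 0.12 and 2.80 ± 0.12. Library set 1 alone gave log2 2.96 in WT and 2.64 in KO, and set 2 alone 3.90 and 3.03, each with an adjusted p under 0.05. The number 2 libraries labelled WT ns held 1180 and 1810 CPM, and those labelled WT LPS 162 and 242.

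Tlr1 and Tlr6, the partners of Tlr2, responded less. Tlr1 lay at 77.8, 99.7 and 113 CPM (lowest, median, highest) in WT ns, and at 208, 298 and 1650 in WT LPS. In KO it lay at 92.1, 101 and 158 CPM in ns and at 212, 252 and 546 in LPS. The groups did not overlap in either genotype. Its log2 fold change was 2.27 ± 0.33 in WT (edgeR, adjusted p = 6.83e-06) and 1.36 ± 0.28 in KO (adjusted p = 0.000467). The highest value of each LPS group came from a library of low GC slope, and without those libraries the changes were 1.59 ± 0.13 and 1.39 ± 0.12. Within library set 2 the KO change of 1.56 had an adjusted p of 0.114, and within set 1 it was 1.30 with 1.94e-05. Tlr6 lay at 56.7, 64.9 and 76.8 CPM in WT ns against 73.5, 93.0 and 214 in WT LPS, and at 67.7, 74.0 and 113 in KO ns against 71.6, 86.9 and 153 in KO LPS. These ranges overlapped in both genotypes. Tlr6 rose by a log2 fold change of 0.68 ± 0.20 in WT (edgeR, adjusted p = 0.0123), with 0.42 in set 1 (adjusted p = 0.0106) and 0.98 in set 2 (0.219). Its KO change of 0.19 ± 0.18 had an adjusted p of 0.492, which became 0.28 ± 0.08 and 0.00793 without the libraries of low GC slope.

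Tlr4, the receptor of the injected LPS, was not called in either genotype. Its level was 83.7, 102 and 127 CPM in WT ns (lowest, median, highest) and 84.0, 108 and 313 in WT LPS, and 97.9, 114 and 386 in KO ns against 91.3, 119 and 288 in KO LPS. The highest value of all groups but WT ns came from a library of low GC slope. The log2 fold change was 0.36 ± 0.31 in WT (edgeR, adjusted p = 0.41) and -0.07 ± 0.27 in KO (0.892). Without those libraries it was 0.01 ± 0.10 (adjusted p = 0.922) and 0.15 ± 0.09 (0.208).

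Tlr5, the flagellin receptor, fell in both genotypes. It lay at 37.4, 48.5 and 63.9 CPM (lowest, median, highest) in WT ns and at 5.33, 24.5 and 26.9 in WT LPS, with no overlap. In KO it lay at 13.4, 49.0 and 61.5 CPM in ns and at 15.8, 24.6 and 32.2 in LPS, and the overlap came from KO ns 6, a library of low GC slope. The log2 fold change was -1.23 ± 0.30 in WT (edgeR, adjusted p = 0.00301) and -0.92 ± 0.26 in KO (adjusted p = 0.00925). Outside the libraries of low GC slope it was -0.98 ± 0.13 and -0.98 ± 0.12, and the KO groups no longer overlapped. Set 1 alone gave -0.96 in WT (adjusted p = 0.00204) and -0.94 in KO (0.000701), and set 2 alone -1.36 (0.23) and -0.79 (0.485).

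Of the endosomal receptors, Tlr13 rose in both genotypes and Tlr7 in WT. Tlr13, the sensor of bacterial ribosomal RNA, lay at 240, 313 and 370 CPM (lowest, median, highest) in WT ns and at 554, 592 and 1420 in WT LPS, with no overlap. In KO it lay at 297, 340 and 724 CPM in ns and 496, 540 and 1400 in LPS, where the highest ns values came from KO ns 5 and KO ns 6. The log2 fold change was 1.18 ± 0.25 in WT (edgeR, adjusted p = 0.000743) and 0.66 ± 0.22 in KO (adjusted p = 0.0231). The KO call was lost when all number 2 libraries were left out (0.44, adjusted p = 0.186), with RLE scaling and without the set covariate. With the libraries of low GC slope left out the changes were 0.94 ± 0.08 and 0.74 ± 0.08, and no groups overlapped. Set 1 alone gave 1.02 in WT (adjusted p = 1.52e-05) and 0.69 in KO (9.99e-05), and set 2 alone 1.38 (0.171) and 0.77 (0.416).

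Tlr7, a sensor of single-stranded RNA, lay at 342, 427 and 511 CPM (lowest, median, highest) in WT ns and at 560, 916 and 2180 in WT LPS, with no overlap. In KO it lay at 462, 578 and 1800 CPM in ns and at 526, 646 and 1430 in LPS, and these overlapped. KO LPS 7, whose GC slope was not low, held 1350 CPM, where the other 6 such KO LPS libraries held 526 to 691. The log2 fold change was 1.26 ± 0.30 in WT (edgeR, adjusted p = 0.00225) and 0.15 ± 0.26 in KO (0.741). Without the libraries of low GC slope it was 1.03 ± 0.20 in WT (adjusted p = 0.000145) and 0.42 ± 0.18 in KO (0.0595). Set 1 alone gave 1.03 (0.000178) and 0.25 (0.173), and set 2 alone 1.56 (0.171) and 0.20 (0.902). A call in WT and none in KO does not by itself show that the genotypes differ, and the test of that difference is given further on.

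Tlr8, the neighbour of Tlr7 on the X chromosome (positions 166024119 to 166047325 on GRCm39), fell in both genotypes from a low level. It lay at 7.50, 16.6 and 28.7 CPM (lowest, median, highest) in WT ns against 6.81, 10.2 and 17.5 in WT LPS, and at 7.05, 12.5 and 16.2 in KO ns against 5.20, 6.62 and 11.5 in KO LPS. The ranges overlapped in both genotypes. The log2 fold change was -0.67 ± 0.22 in WT (edgeR, adjusted p = 0.0203) and -0.72 ± 0.19 in KO (adjusted p = 0.00442). With those of low GC slope left out it was -0.74 ± 0.23 and -0.72 ± 0.21. In WT the adjusted p was 0.0877 in set 1 and 0.425 in set 2 alone, and 0.0579 without the filter on low counts. Under the labels as deposited the WT value was 0.05, since the number 2 libraries labelled WT LPS held 25.3 and 38.9 CPM and those labelled WT ns 7.83 and 16.7. Some lists of markers of other cells had lower medians or ranges in the LPS groups, and others did not. The 6 border macrophage markers summed to 317 to 923 CPM in WT ns and 174 to 526 in WT LPS, and to 231 to 689 in KO ns and 150 to 447 in KO LPS. The 6 monocyte markers had medians of 471 CPM in WT ns and 527 in WT LPS (201 to 1920 and 380 to 2570), and of 258 in KO ns and 427 in KO LPS (129 to 1200 and 294 to 731). F13a1, at 53.4 to 261 CPM in the 32 samples, is in both of these lists. The neutrophil markers had medians of 2580 and 2490 in WT, and of 914 and 2130 in KO. The 5 dendritic cell markers in the table summed to 15.6 to 38.5 CPM in WT ns and 2.81 to 6.41 in WT LPS, and to 16.3 to 51.5 and 3.42 to 5.40 in KO. Xcr1 and Clec9a, which define a dendritic cell type, were at 0 in 1 and 5 of the 32 samples. The part of these cells in the fall of Tlr8 was not tested, and in bulk RNA fewer cells of a type and less RNA per cell cannot be told apart.

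Tlr9, the sensor of unmethylated DNA, was called in both genotypes once the libraries of low GC slope were left out, and in neither with them. Its level was 148, 156 and 239 CPM (lowest, median, highest) in WT ns and 6.75, 113 and 139 in WT LPS, and 6.07, 178 and 208 in KO ns against 3.81, 116 and 131 in KO LPS. Every value of 40.4 CPM or less came from a library of low GC slope. With these libraries the log2 fold change was -0.83 ± 0.65 in WT (edgeR, adjusted p = 0.368) and -0.42 ± 0.56 in KO (0.649). Without them it was -0.58 ± 0.13 (adjusted p = 0.000635) and -0.63 ± 0.12 (8.34e-05), and LPS and ns libraries did not overlap in either genotype. Library set 1, which holds none of them, gave -0.88 in WT (adjusted p = 0.00106) and -0.76 in KO (0.000999). Set 1 does hold WT ns 4, which had the highest GC slope of the experiment (0.48) and 168.4 M counts. WT ns 4 held the highest Tlr9, at 239 CPM, and WT ns 2 followed at 214 with a slope of 0.10. Set 1 alone was not fitted without WT ns 4. Tlr3, the sensor of double-stranded RNA, was not called with or without them, at -0.07 ± 0.24 and 0.05 ± 0.21 with them and -0.21 ± 0.12 and 0.00 ± 0.11 without, for WT and KO. Its level lay between 101 and 182 CPM in every library of the 4 groups outside those of low GC slope.

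**Figure D2:**
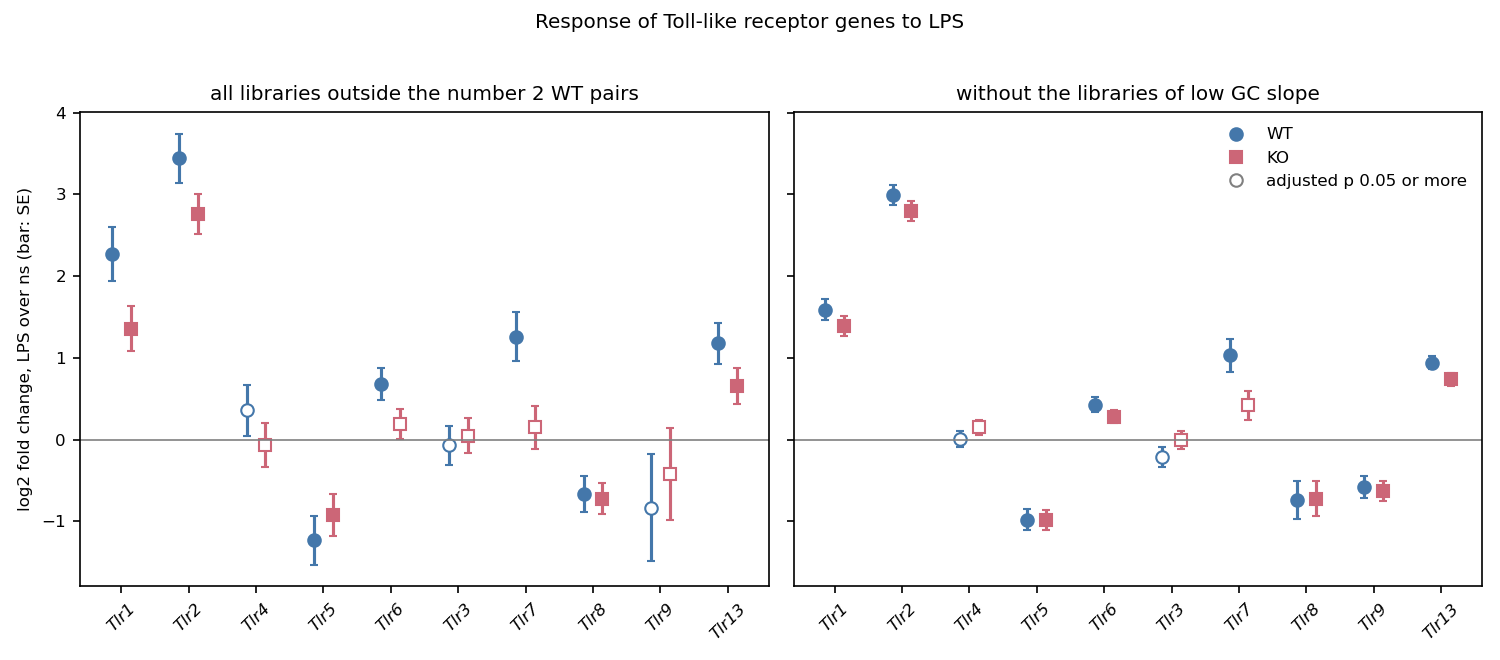
Log2 fold change of LPS over ns for each member (points, bars are the SE) in WT and KO, left with all libraries outside the number 2 WT libraries and right without those of low GC slope; open symbols have an adjusted p of 0.05 or more. Tlr9 and the KO value of Tlr6 are open on the left and filled on the right.

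The members differed in how they stood in the libraries of low GC slope. Their longest GENCODE M21 transcripts run from 39.4% GC for Tlr4 to 56.2% for Tlr9. In the 4 such libraries that entered comparisons, Tlr9 differed from the mean of the other libraries of its group by -4.94 to -2.22 log2 units. KO LPS 5 held 3.81 CPM of Tlr9, where the other 7 KO LPS libraries held 98.6 to 131. Tlr5, at 47.6% GC, differed by -2.20 to -0.29 log2 units. Tlr4 (39.4% GC) differed by 0.56 to 1.85 and Tlr7 (41.0%) by 0.70 to 1.75. Tlr2 (49.3% GC) stood higher as well, by 0.60 to 1.98, so that the order of the members did not follow GC content throughout. Across the 10 members, the median difference and transcript GC had a Pearson r of -0.82 and a Spearman rho of -0.54, as a description over genes that share these 4 libraries.

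**Figure D3:**
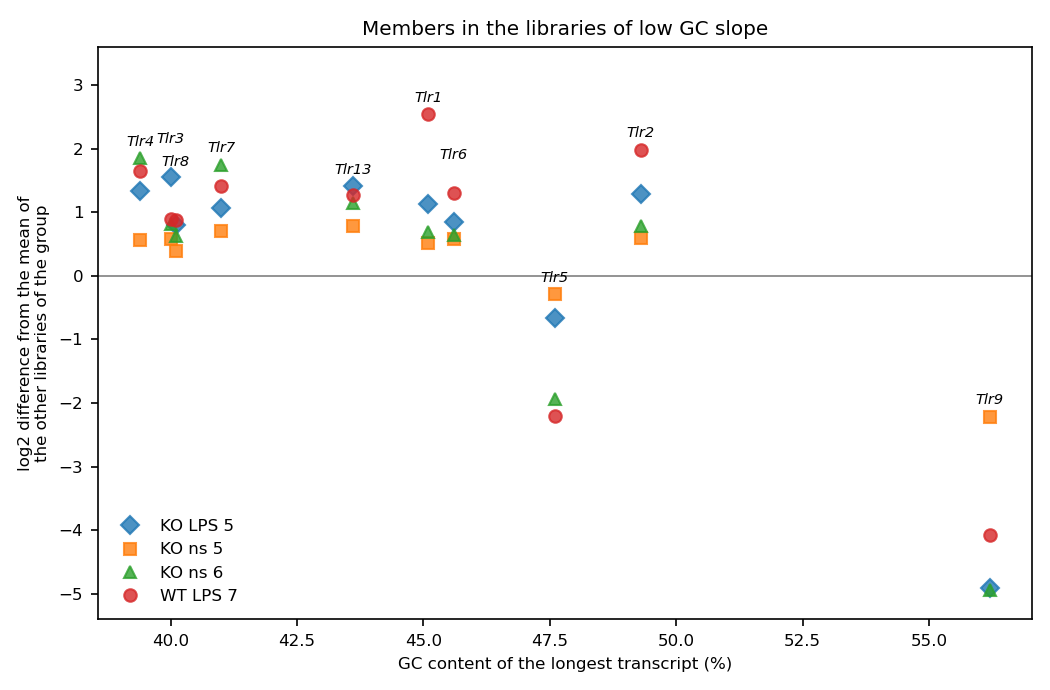
Log2 difference of each member in the 4 libraries of low GC slope from the mean of the other libraries of the same group, against the GC content of its longest transcript in percent. Tlr9 at 56.2% GC lies lowest in all 4, and Tlr5 lies below 0 in all 4.

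Loss of P2RY12 changed no member's level at an adjusted p under 0.05, in ns or in LPS libraries. In ns, edgeR and DESeq2 both called 0 of 10, and 2 members had an unadjusted p under 0.05, where edgeR called 0.0891% of all genes and 9.27% had an unadjusted p under 0.05. The lower one was Tlr8, at 17.4 ± 7.50 CPM in WT ns (SD, n = 6) and 11.9 ± 3.14 in KO ns (SD, n = 8), a log2 fold change of -0.53 ± 0.20 (edgeR, adjusted p = 0.441). The higher one was Tlr7, at 431 ± 63.8 and 738 ± 447 CPM, with 0.70 ± 0.28 (adjusted p = 0.464) and with 0.34 ± 0.19 (0.485) without the libraries of low GC slope. The other 8 members had log2 values between -0.36 and 0.48. In LPS libraries both tools again called 0 of 10, against 0.078% of all genes, and 3 members had an unadjusted p under 0.05, against 6.1%. Tlr1 differed by -0.75 ± 0.30 (adjusted p = 0.665), Tlr2 by -0.55 ± 0.25 (0.765) and Tlr8 by -0.59 ± 0.20 (0.54). Without the libraries of low GC slope Tlr1 and Tlr2 differed by -0.21 ± 0.12 and -0.26 ± 0.11, and Tlr8 by -0.56 ± 0.22. KO and WT ranges overlapped for every member in both treatments.

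The test of whether the LPS response differed between the genotypes called 0 members with edgeR and with DESeq2, and 0% of all genes with edgeR. In edgeR 2 members and 890 genes (4.96%) had an unadjusted p under 0.05. With the number 2 libraries of both genotypes left out, these were 5 members and 1574 of 15816 genes, again with 0 called. Without the libraries of low GC slope they were 1 member and 967 of 18282 genes. Tlr7 had the smallest unadjusted p of the members. The difference of its responses, KO minus WT, was -1.11 ± 0.39 log2 units (edgeR, adjusted p = 0.784), -0.61 ± 0.27 (0.933) without the libraries of low GC slope and -0.78 ± 0.22 (0.88) in library set 1 alone. Tlr1 followed with -0.91 ± 0.42 (adjusted p = 0.784) and -0.20 ± 0.17 without them. Tlr5, Tlr8 and Tlr3 had values of 0.31 ± 0.40, -0.05 ± 0.29 and 0.11 ± 0.32. The WT and KO responses set side by side share no libraries.

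The signalling genes around the receptors were followed in a list of 44 co-receptors, chaperones, adaptors, kinases, transcription factors and inhibitors. LPS raised 13 and lowered 1 of the 44 in KO, with a median log2 fold change of 0.16 against -0.03 for all genes, and raised 11 and lowered 4 in WT, with a median of 0.10 against -0.02. Of all genes tested, 26.2% were called in KO and 28.1% in WT. The 5 raised genes of lowest adjusted p were Ikbke, Irf7, Tnfaip3, Nfkbia and Peli1 in both genotypes. Ikbke, a kinase that activates interferon regulatory factors, rose by log2 5.43 ± 0.56 in KO and 4.36 ± 0.61 in WT (edgeR, adjusted p = 1.5e-08 and 3.14e-06). Irf7, a transcription factor of type I interferon genes, rose by 2.67 ± 0.28 and 2.23 ± 0.32. The feedback inhibitors Tnfaip3 and Nfkbia rose by 1.98 ± 0.21 and 1.58 ± 0.20 in KO and by 2.24 ± 0.25 and 2.23 ± 0.23 in WT. Peli1, a ubiquitin ligase acting downstream of the receptors, rose by 0.86 ± 0.11 and 1.35 ± 0.13. Cd36, a scavenger receptor that assists Tlr2 and Tlr6, fell from 33.9 ± 31.5 to 7.03 ± 4.99 CPM in KO (SD, n = 8) and from 29.9 ± 7.46 to 7.87 ± 4.44 in WT (SD, n = 6), log2 -2.10 ± 0.32 and -2.0 ± 0.37 (adjusted p = 1.22e-05 and 0.000161). Leaving out the libraries of low GC slope, 27 of the 44 were called in KO and 28 in WT, where 49.9% and 49.6% of all genes were called. Genotype called 0 of the 44 in ns and in LPS libraries with edgeR, with 4 at an unadjusted p under 0.05 in each (9.27% and 6.1% of all genes), while DESeq2 called 1 in ns and 0 in LPS.

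In the sex experiment, no member was called between KO and WT animals. In the mean of the sexes, 9 members had log2 differences between -0.02 and 0.08 with an SE of at most 0.11, and Tlr8 had -0.24 ± 0.34. Both edgeR and DESeq2 called 0 of 10 members in males, in females and in the mean of the sexes, and 0 had an unadjusted p under 0.05. Of all 31709 genes tested, edgeR called 0.00946%, 0.164% and 0.432%, and 6.85%, 5.22% and 9.02% had an unadjusted p under 0.05. Tlr2 lay at 155 ± 11.3 CPM in male WT (SD, n = 4), 158 ± 14.4 in male KO (n = 5), 145 ± 17.3 in female WT (n = 4) and 158 ± 18.9 in female KO (n = 5), with a log2 difference of 0.08 ± 0.07 in the mean of the sexes (edgeR, adjusted p = 0.865). Tlr4 lay at 186 ± 34.0, 196 ± 19.6, 177 ± 17 and 170 ± 9.71 CPM in the same order of groups, with a difference of 0.01 ± 0.08 (adjusted p = 1). Tlr7 lay at 622 ± 129, 685 ± 56.8, 645 ± 151 and 655 ± 76.4 CPM, with 0.08 ± 0.11 (0.948). Male WT 5 and female WT 2, with neutrophil marker sums of 48200 and 28600 CPM, held the lowest Tlr3 of their groups (119 and 121). Tlr4 (141 and 156), Tlr7 (435 and 458), Tlr1 and Tlr9 were also lowest there, and Tlr2 and Tlr8 highest. Tlr5, Tlr6 and Tlr13 were lowest in male WT 5 but not in female WT 2. The part of neutrophils in these genotype comparisons was not tested. The genotype effect was not shown to differ between the sexes for any member, with 0 called by edgeR and by DESeq2, 0 at an unadjusted p under 0.05, and 0% of all genes called (2.77% at an unadjusted p under 0.05). Of the 44 signalling genes, Peli1 alone was called in the mean of the sexes, 0.32 ± 0.06 higher in KO (edgeR, adjusted p = 0.0256), at 125 ± 12.8 CPM in male WT and 165 ± 12.7 in male KO, and 128 ± 12.1 and 150 ± 13.4 in females. The call was lost when any of female KO 2, female KO 5, female WT 3, male KO 1, male KO 2, male KO 3, male WT 3 or male WT 4 was left out. In the LPS experiment Peli1 lay at 112 ± 5.69 CPM (SD) in WT ns and 159 ± 16.4 in KO ns. In LPS libraries it lay at 285 ± 53.1 in WT and 289 ± 41.6 in KO, and the main edgeR fit called neither difference between the genotypes. For ns, DESeq2 and edgeR without the libraries of low GC slope each called 1 of the 44, as higher in KO. Over all genes they called 52 of 17911 and 46 of 18282. Which of the 44 was called is not given here.

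**Figure D4:**
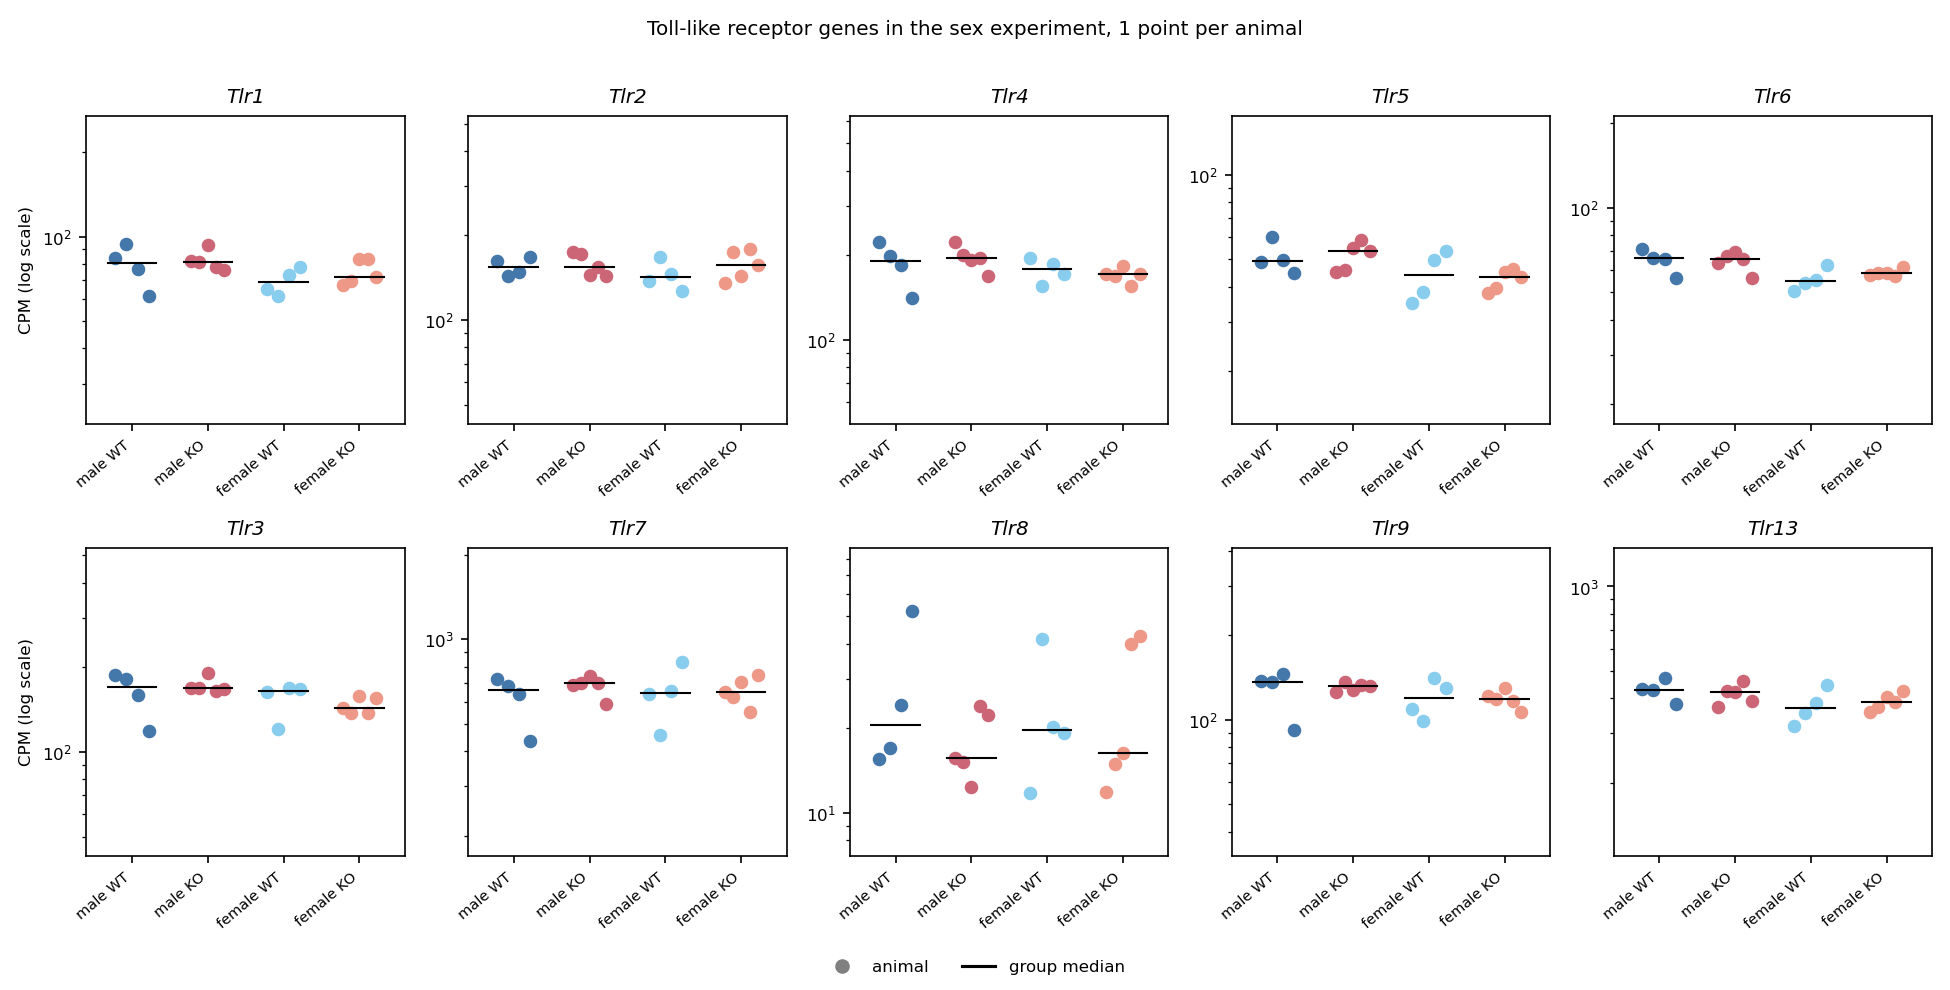
Level of each member in the sex experiment in CPM (log scale), 1 point per animal, with group medians as lines. All ranges overlap between KO and WT, and Tlr8 has the widest spread, from 11.8 to 52.4 CPM.

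Females and males were compared because Tlr7, Tlr8 and Tlr13 lie on the X chromosome. None of these was called: Tlr7 had log2 differences of 0.05 ± 0.16 in WT and -0.06 ± 0.14 in KO (female over male), Tlr13 of -0.19 ± 0.10 and -0.09 ± 0.09, and Tlr8 of -0.24 ± 0.51 and 0.48 ± 0.46. No member passed in either genotype with edgeR or DESeq2, where edgeR called 0.0725% of all genes in WT and 0.243% in KO. The smallest unadjusted p-value belonged to autosomal Tlr6 in WT. Its 4 female WT animals held 50.7, 54.1, 55.3 and 62.5 CPM and its 4 male WT animals 71.2, 66.5, 65.7 and 56.3, ranges that overlap, with a log2 difference of -0.22 ± 0.08 (edgeR, adjusted p = 0.59). In that table the counted span of Tlr6 overlaps those of Fam114a1 and Mir574, so reads may be shared. Tlr3 in KO was the one member without overlap, with 143, 137, 158, 138 and 156 CPM in the females and 169, 169, 191, 164 and 168 in the males, a difference of -0.23 ± 0.11 (edgeR, adjusted p = 0.617). How often the ranges of all genes separate in that comparison was not counted, so this gap has no background to be read against. Tlr5 in KO differed by -0.28 ± 0.11 (edgeR, adjusted p = 0.497). In the fit of all genes, 7.5% had an unadjusted p under 0.05 in WT and 7.87% in KO, against 1 and 2 of the 10 members.

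Tlr8 had the widest spread of the members between animals of a group. The 4 male WT animals held 15.6, 17, 24.2 and 52.4 CPM and the 5 male KO animals 15.7, 15.2, 12.4, 24.1 and 22.4. The 4 female WT animals held 11.8, 41.5, 20.2 and 19.3 CPM and the 5 female KO animals 11.9, 14.9, 16.4, 39.9 and 42.5. Male WT 5, female WT 2, female KO 4 and female KO 5 stood apart at 39.9 to 52.4 CPM, and all others were at 24.2 or below. Markers of other myeloid cells were also high in some of these animals. The 8 neutrophil markers summed to 48200 CPM in male WT 5 and 28600 in female WT 2, and to 720 to 7670 in the other 16 animals. The 6 border macrophage markers summed to 883 and 1150 CPM in female KO 4 and female KO 5, to 650 in male WT 5 and 368 in female WT 2, and to 206 to 571 in the other animals. The monocyte markers summed to 3910 CPM in male WT 5, 2160 in female WT 2, 712 in female KO 4 and 565 in female KO 5, against 133 to 650 elsewhere. F13a1, at 46.9 to 404 CPM in the 18 animals, is in both the border macrophage and the monocyte list, so these sums are not independent. The part of these other myeloid cells in the Tlr8 values was not tested. Leaving out male WT 5 or any other animal gave no call for any member.

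**Figure D5:**
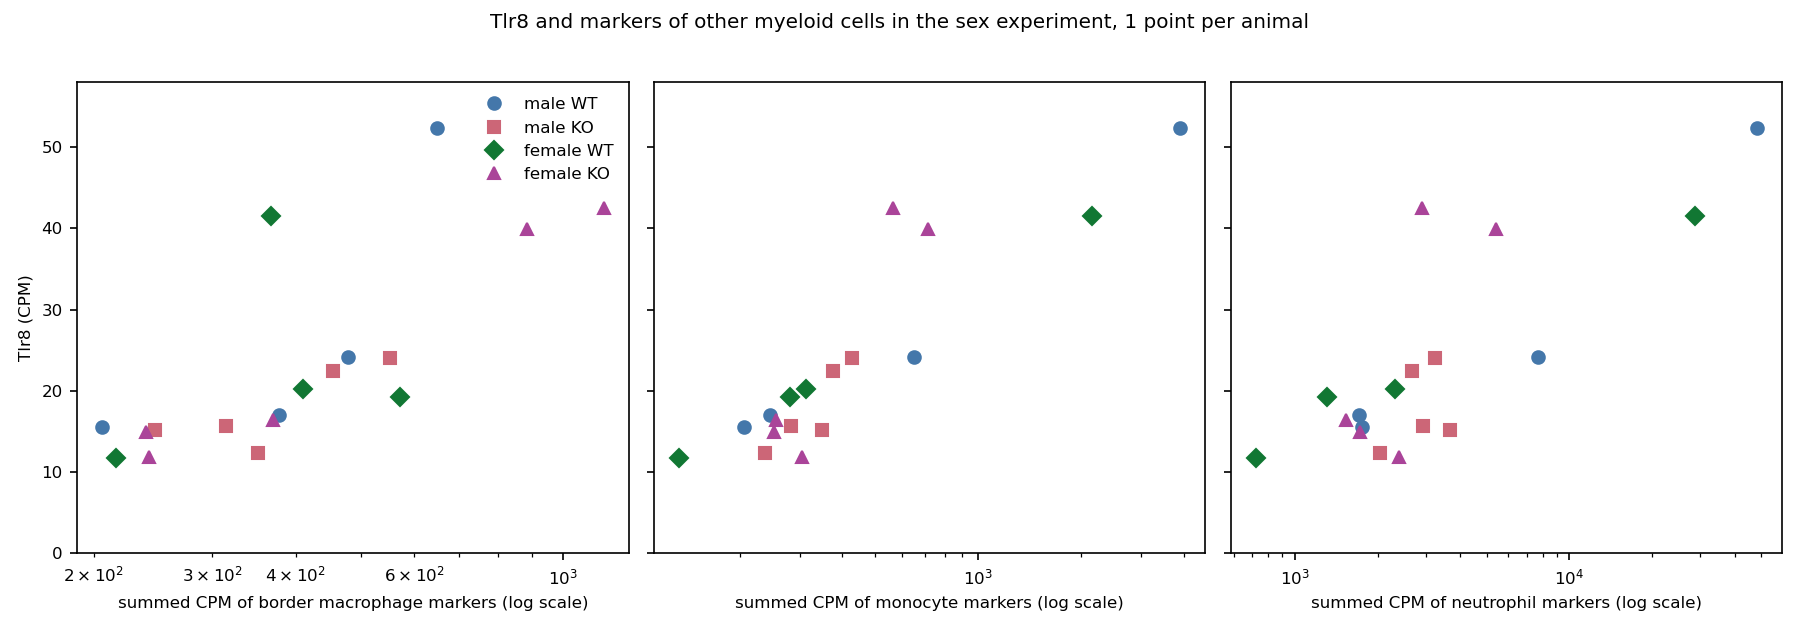
Tlr8 in CPM against the summed CPM (log scale) of border macrophage, monocyte and neutrophil markers in the 18 animals of the sex experiment, 1 point per animal. The 4 animals above 39 CPM of Tlr8 lie to the right in at least 1 of the panels.

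After group and library set means were removed, the genes most like each member over the 32 samples of the LPS experiment were found by Pearson r of log2 CPM, as a description over samples that share the libraries of low GC slope. Tlr8 was closest to Arhgap15 (r = 0.88), Gsdme (0.87) and Stom (0.86), and these r were 0.92, 0.90 and 0.89 over the 26 samples without those libraries and 0.85, 0.74 and 0.90 over the 18 animals of the sex experiment. For Tlr7 the closest were Lpxn (0.96), Pex13 (0.96) and Prcp (0.95), with 0.91, 0.96 and 0.92 without those libraries and 0.77, 0.56 and 0.79 in the sex experiment. Tlr4 was closest to Elmod2, Fundc1 and Pon3 (0.98 each), with 0.88, 0.80 and 0.89, then 0.82, 0.65 and 0.86. For Tlr9 the closest were Gtf3c1, Scaf4 and Zfp609 at 0.99 each, with 0.56, 0.80 and 0.54 without the libraries of low GC slope and 0.21, -0.54 and 0.27 in the sex experiment. Tlr3 was closest to Nek1, Canx and Ppip5k2 (0.96 each), with 0.86, 0.85 and 0.84, then 0.66, 0.84 and 0.11. All closest genes were picked for their high r in the LPS experiment, so a lower r elsewhere follows in part from that choice. Those of Tlr1, Tlr2, Tlr5, Tlr6 and Tlr13 had r of 0.58 to 0.92 without the libraries of low GC slope. The genes closest to these members had lower r in the sex experiment than in the LPS experiment. For Tlr1 they were Mphosph10 (0.97), Srfbp1 (0.96) and Gtpbp4 (0.96), with -0.44, 0.22 and -0.01 in the sex experiment. For Tlr2 they were Utp6, Rnf4 and Gtpbp4 (0.94 each), with 0.10, 0.40 and 0.17 there. Tlr13 was closest to Gtf3c3 (0.98), Cog5 (0.97) and Erap1 (0.97), with 0.41, 0.12 and 0.33 there. Tlr6 was closest to Gtdc1 (0.94), C3ar1 (0.94) and Zfp719 (0.93), with -0.26, 0.50 and 0.23 there. Tlr5 was closest to Gm23318 (0.96), AC137842.1 (0.95) and Proz (0.94), with -0.22 for Gm23318 and 0.04 for Proz there. Among the members, Tlr4 and Tlr9 had an r of -0.94 with all samples and -0.25 without those libraries. Tlr6 and Tlr7 had 0.83 and 0.77, and 0.79 in the sex experiment.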

How the data were processed

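Both deposited tables hold whole-number read counts by gene, which the authors left without normalization. The submitters' processing notes name FastQC, STAR 2.6.1, featureCounts of Subread, DESeq2 and GRCm39, without saying which table each made. Per the file headers, the table of the sex experiment gives each gene its whole span on GRCm39, so introns are counted, and 77.1% to 86.1% of its low counts were even, against 41.5% to 46.5% in the other table. The tables were therefore fitted separately. The 6 repeat libraries in the labels were not analysed here, and 0 columns lacked a sample.

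Genes passing filterByExpr were tested with edgeR 4.0.16 (R 4.3.3): TMM, robust quasi-likelihood fit, a mean per group, library set as covariate in the LPS experiment, Benjamini-Hochberg over all genes of a contrast, called at an adjusted p under 0.05. The fits were also run on simulated counts with the same spread for all genes. These had no GC slope, set difference or libraries against their labels, so that run cannot test how such features affect the calls. CPM are counts per M counts of the TMM-scaled library. WT LPS 8 and 9 (chi-square 1.86 per degree of freedom, next pair 8.32) were summed. A library has a low GC slope where its log2 deviation over transcript GC (GENCODE M21) falls below -0.5 per 10 points. Named were all members, Tlr11 and Tlr12, P2ry12 and Saa3, up to 5 called signalling genes per direction and the 3 closest genes by r. Members and lists were chosen with earlier results of these data known. Alternatives were DESeq2 1.42.0, RLE scaling, no filter, a replicate block, other groupings, each animal or library set left out, and, added after seeing the data, no libraries of low GC slope, a GC offset and WT ns 4 left out. The values of 1 marker list are not reported here.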

Additional observations from a re-analysis of the deposited data

Results flagged for a closer look

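In 80 combinations of a member with a group of 4 to 8 samples, values far from the rest of their group were sought. This gave 21 extreme values, where chance gives about 1 in 20 combinations. Members share the same libraries, so the 80 are not independent and the chance share is only a rough guide. KO LPS 5 stood apart for Tlr1 (546 CPM), Tlr2 (2390), Tlr3 (449), Tlr4 (288), Tlr6 (153) and Tlr13 (1400) as the highest, and for Tlr9 (3.81) as the lowest of its group. WT LPS 7 was highest for Tlr1 (1650 CPM), Tlr2 (4650), Tlr4 (313), Tlr6 (214) and Tlr13 (1420) and lowest for Tlr5 (5.33) and Tlr9 (6.75). KO ns 6 was highest for Tlr4 (386 CPM) and Tlr7 (1800) and lowest for Tlr5 (13.4) and Tlr9 (6.07). All 3 libraries are among the 6 of low GC slope, and no other library of the LPS experiment was far from its group by this measure. They also had the highest neutrophil marker sums of their groups, 12900 CPM in WT LPS 7, 9550 in KO ns 6 and 4160 in KO LPS 5. WT LPS 7 and KO ns 6 had the highest monocyte marker sums as well, 2570 and 1200 CPM. KO ns 5, also of low GC slope, had a neutrophil sum of 632 CPM, where the median of KO ns was 914. WT ns 3 and WT ns 8, whose slopes were not low, had 17300 and 16200. The part of neutrophils and monocytes was not tested. In the sex experiment Tlr3 was low in female WT 2 (121 CPM) and high in male KO 3 (191), and Tlr9 was low in male WT 5 (92.1). Female WT 2 and male WT 5 are the animals with the highest neutrophil marker sums, 28600 and 48200 CPM.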

How the results depend on the processing

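Of the values of single members under alternative settings, 1981 kept their side of the threshold, 23 lost and 5 gained a call. All lost and gained calls were in the comparisons of LPS with ns. In every other comparison no member was called under any setting, so those values had no call to lose, and they make up most of the 1981. Values that were not called could change sign, and 1 called value did, Tlr8 for LPS in WT, at 0.05 with number 2 WT libraries under their labels. Under those labels 3 members were called for LPS in KO and 0 in WT, and 0 of the signalling list in WT. Library set 1 alone called 22 of the list in KO and 24 in WT. Set 2 alone called 7 in each, and 1 member in KO and 2 in WT. Without the libraries of low GC slope the list had 27 and 28 calls, and with a GC offset 22 in KO and 18 in WT. For KO against WT in ns, DESeq2 and the fit without the libraries of low GC slope each called 1 of the list. Leaving out 1 animal gave 0 to 1 calls of the list in the mean of the sexes and 0 to 1 for female against male KO. Same-numbered samples had a mean r of 0.007 in the sex and 0.114 in the LPS experiment, with lowest values of -0.478 and -0.49. The means for other pairs were -0.001 and -0.012. The main fits did not pair samples by replicate number, and these values do not settle whether the LPS experiment is paired. A replicate block gave 0 member calls in the sex experiment and 5 (KO) and 7 (WT) for LPS, with 19 of the list in each. Over all genes, DESeq2 called 27 between KO and WT males, 210 between females and 358 in the mean of the sexes, where edgeR called 3, 52 and 137. Between females and males it called 153 in WT and 353 in KO, where edgeR called 23 and 77. In ns and LPS it called 52 and 49 between genotypes, where edgeR called 16 and 14, and 3 for the interaction, where edgeR called 0. Without the libraries of low GC slope, edgeR called 9120 and 9065 genes for LPS in KO and WT, where all libraries gave 4696 and 5039, and 46 between genotypes in each treatment. A fit of only the groups compared was not run for the mean of the sexes and the interactions. Depth limits Tlr11, at 0.714 to 5.43 CPM in the LPS experiment. For all these changes the cause was not tested.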

Other observations

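The mouse genes Tlr11 and Tlr12, whose proteins bind profilin-like molecules of parasites, lie outside the 10 genes described above. Tlr11 was near the lower limit, at 1.35 ± 0.389 CPM in KO ns (SD, n = 8) and 2.68 ± 0.969 in KO LPS (SD, n = 8), log2 0.98 ± 0.26 (edgeR, adjusted p = 0.00445), and at 1.58 ± 0.428 in WT ns and 1.55 ± 0.494 in WT LPS (SD, n = 6 each), log2 -0.01 ± 0.30 (adjusted p = 0.981). The difference between these responses was 1.00 ± 0.39 (adjusted p = 0.784) and was not called. Tlr12, whose transcript has 56.0% GC, fell in WT from 64.0 ± 13.0 to 28.3 ± 13.3 CPM, log2 -1.16 ± 0.36 (adjusted p = 0.0152), and in KO it had -0.55 ± 0.31 (adjusted p = 0.207). Without the libraries of low GC slope both Tlr12 changes were called, at -0.97 ± 0.18 in WT (adjusted p = 0.000107) and -0.61 ± 0.16 in KO (0.00303).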
